A study of Mus musculus with 3 samples.

Results

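The immunoglobulin light chain loci were examined in genomic DNA, by whole-exome sequencing of sorted B and T cells of the mouse. The Igk (kappa) locus was taken as chromosome 6 from 67555636 to 70726754 and the Igl (lambda) locus as chromosome 16 from 19026858 to 19260844, both in GRCm38. All SNPs listed between these positions were used, with no choice by value. They numbered 554 in 102 genes for Igk and 6 in 3 genes for Igl, together 560 of the 452304 SNPs in the exome data. Each SNP has a number of reads with the C57BL/6 (B6, maternal) allele and with the CAST/EiJ (CAST, paternal) allele.

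All cells descended from hematopoietic stem cells (HSCs) of female F1 donors with a B6 mother and a CAST father, carrying Ly5.2, which had been injected into sublethally irradiated F1 females carrying Ly5.1 on the B6 side. Library E6.2 held DNA of 58000 B220+IgM+ B cells from a recipient of 50 HSCs of donor animal 6, from spleen by the label and from bone marrow by the study's methods. Library E6.43 held DNA of 250000 thymic CD4+CD8- T cells from a recipient of 1 HSC of the same donor, and library E15.10 held DNA of 177000 such T cells from a recipient of 1 HSC of donor animal 15. By the methods, all samples of the experiment with donor 6 share a large deletion. With 1 library per animal there is no replicate error. The only polyclonal library is the B cell library, so cell type and number of HSCs cannot be told apart, and every interval below covers counting error only. Triples of values are given in the order E6.2 (B cells), E6.43 (T cells, same donor), E15.10 (T cells, other donor).

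Light chain genes are assembled in developing B cells and remain unjoined in T cells. A variable (V) segment is cut next to a recombination signal, a heptamer and a nonamer with a spacer between them, and is joined to a joining (J) segment, whose own signal has a spacer of the other length. A V segment on the strand of the J segments joins by deletion of the DNA in between, and one on the opposite strand joins by inversion, which keeps that DNA. A V to J join leaves the constant exon Igkc in place. A later join to the recombining sequence downstream of Igkc can remove that exon, and cells that fail to make a useful kappa chain may then join the lambda locus.

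The Igk members were 87 V genes with 498 SNPs, 6 V pseudogenes with 27 SNPs, the J segments Igkj2 with 3 SNPs and Igkj4 with 2 SNPs, the constant exon Igkc with 1 SNP, and 6 small RNA genes between V segments with 23 SNPs. Of the 5 J segments annotated, Igkj1, Igkj3 and Igkj5 had no SNP in the data. Igl was covered by Iglv1 with 2 SNPs, Iglv3 with 3 and the constant exon Iglc2 with 1, and by none of its J segments. Of the 93 V segments and pseudogenes of Igk, 36 lie on the strand of the J segments and 57 on the opposite strand.

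The sequences around the J segments are shown because the lowest depth in B cells was found there. In the signals, capitals mark the nonamer and, next to the segment, the heptamer. In the segments, capitals mark the bases with a counted SNP. All are reference (B6) sequence of GRCm38, plus strand. The signal of Igkj2 lies at chr6:70722877-70722915, Igkj2 at chr6:70722916-70722958, the signal of Igkj4 at chr6:70723508-70723547 and Igkj4 at chr6:70723548-70723585.
Igkj2 signal: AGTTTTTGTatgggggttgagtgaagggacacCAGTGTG
Igkj2: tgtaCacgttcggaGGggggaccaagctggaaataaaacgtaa
Igkj4 signal: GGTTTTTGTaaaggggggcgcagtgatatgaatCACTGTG
Igkj4: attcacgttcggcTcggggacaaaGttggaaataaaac
Counted from the border with the signal, the SNPs are at bases 5, 15 and 16 of Igkj2 and at bases 14 and 25 of Igkj4. Where a V segment is joined to the same J segment that holds the SNP, a read over that SNP would run into the V segment within a short distance. Were such reads left unaligned, the counts at these SNPs would fall without any loss of DNA. How they were aligned was not tested. The SNP of Igkc is at base 293 of that gene, at position 70726727.

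The V segments carry the partner signals. Both strands of the 60 bases after each of the 91 V segments listed in GENCODE were searched for the heptamer CACAGTG and the nonamer ACAAAAACC. The heptamer was found in 75 of them (82.4%), in each case directly after the segment, against 1.45% of 27200 other autosomal genes. The nonamer was in 33.0% of the V windows and in 0.239% of the others. The signals of the V segments nearest to and farthest from the J segments, of the V segment with the highest B cell ratio and of the best covered one are given on their own strand, with heptamer and nonamer in capitals. They lie at chr6:70704178-70704205 (plus), chr6:70699068-70699095 (plus), chr6:70573231-70573258 (plus), chr6:68990730-68990757 (minus) and chr6:67556217-67556244 (plus).
Igkv3-1: CACAGTGctccagggctgaACAAAAACC
Igkv3-2: CACAGTGctccagggctgaACAAAAACC
Igkv3-10: CACAGTGctccagggctgaACAAAAACC
Igkv4-81: CACAGTGatacaggctggaACAAAAACC
Igkv2-137: CACAGTGatacagccctgaACAAAAACC
The first 3 are the same 28 bases, although the depth ratios of these segments, given below, were 0.672, 1.05 and 1.59.

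Against the T cell library of the same donor, the J and C segments of Igk were low in B cell DNA while the V segments were not. Igkj2 had 239, 468 and 222 counts, or 12.6, 36.9 and 20.9 counts per 1000000 autosomal counts (CPM). Igkj4 had 114, 178 and 106 counts, or 6.03, 14.05 and 9.98 CPM. Igkc, with its single SNP, had 52, 83 and 34 counts, or 2.75, 6.55 and 3.20 CPM. In each of these segments the B cell library had the lowest value of the 3 libraries, and the T cell libraries also differed from each other.

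The ratio of E6.2 to E6.43, the T cell library of the same donor, was 0.342 (95% exact interval 0.292 to 0.401) for Igkj2, 0.429 (0.336 to 0.546) for Igkj4 and 0.420 (0.291 to 0.601) for Igkc. Over the 6 SNPs together the ratio was 0.372 (0.329 to 0.421). Neighbouring SNPs are covered by the same reads, which makes intervals of summed counts too narrow. Taken singly, the SNPs of Igkj2 had ratios of 0.312, 0.357 and 0.359, those of Igkj4 had 0.430 and 0.429, and that of Igkc had 0.420. The upper limit of the widest single interval was 0.608, so each of the 6 SNPs was below the level of the T cell library by more than its counting error.

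None of the 514 V SNPs with at least 30 counts was as low. Their ratios ranged from 0.561 to 2.41 with a median of 1.06, and 0 of them lay at or under 0.430, the highest ratio among the 6 J and C SNPs. Of all 186275 autosomal SNPs with at least 30 counts and counts in both libraries, 0.481% lay at or under it. At the level of genes, 70 of 22402 autosomal genes (0.312%), these 3 segments included, had a ratio of 0.430 or less.

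**Figure D1:**
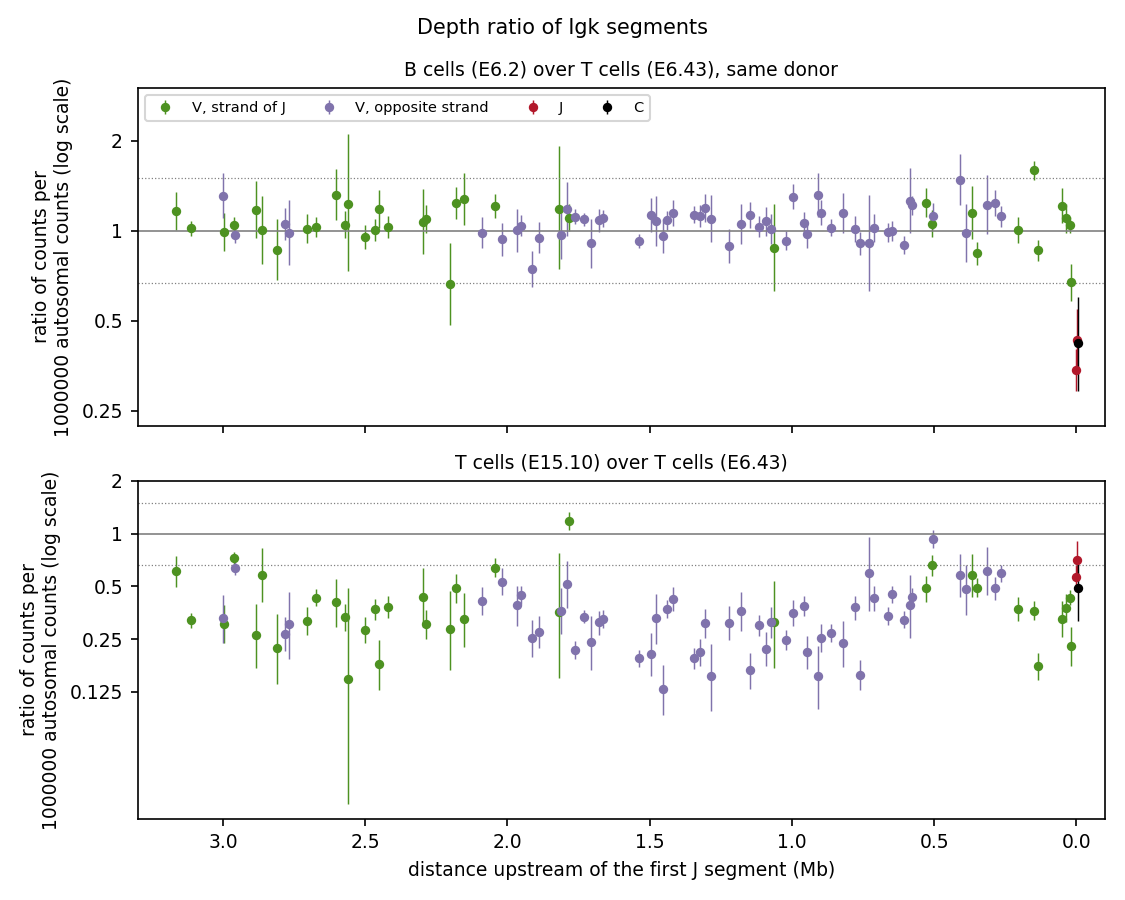
Ratio of depth (CPM, log scale) for each Igk segment against its distance upstream of the first J segment in Mb, with 95% exact intervals, for E6.2 over E6.43 above and E15.10 over E6.43 below. Dotted lines mark 1.5-fold. In the upper plot most V segments lie near 1 and the J and C segments at the right lie between 0.342 and 0.429, while in the lower plot most V segments lie below the J and C segments.

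With 1.5-fold in place of a test, 4 of the 95 measured Igk V, J and C segments were under 1/1.5 of E6.43, where 2.10% of all autosomal genes were. They were Igkj2, Igkj4, Igkc and Igkv14-100, a V segment with 1 SNP and 82, 83 and 20 counts, whose ratio was 0.662. Under 1/2 were 3 of the 95, the J and C segments, where 0.554% of all autosomal genes were. Over 1.5 was 1 of the 95, Igkv3-10, where 3.02% of all autosomal genes were. Igkv14-100 is named for falling in this count, after its values were seen.

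The other T cell library was shifted in base composition, and its part in the values below was not tested beyond the correction given next. E15.10 had 4.10% of its autosomal counts at SNPs with a GC content under 0.4 within 150 bp, where E6.2 had 8.55% and E6.43 had 7.89%. Between the T cell libraries 31.4% of all autosomal genes were under 1/1.5 in E15.10 over E6.43, and 91 of the 95 Igk segments were. The ratio of E15.10 to E6.43 was 0.369 (0.363 to 0.375) for the V segments and 0.592 (0.521 to 0.673) for the J and C segments. In E6.2 over E15.10, 24.7% of all autosomal genes were under 1/1.5 and 2 of the 95 Igk segments were, namely Igkj2 at 0.605 (0.502 to 0.730) and Igkj4 at 0.604 (0.460 to 0.795). Igkc was at 0.859 (0.547 to 1.37), an interval that includes 1 and overlaps that of its ratio against E6.43, 0.291 to 0.601. Between the T cell libraries, in E15.10 over E6.43, Igkc was itself at 0.489 (0.318 to 0.736).

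A correction that scales each SNP by the counts of all autosomal SNPs of like GC content brought both T cell libraries to a similar answer for the J and C segments. Their corrected ratio was 0.357 against E6.43 and 0.387 against E15.10, and 0.880 between the T cell libraries. It did not do so for Igkc alone, which was at 0.427 against E6.43, 0.945 against E15.10 and 0.451 in E15.10 over E6.43. It also left the V segments at 2.08 in E6.2 over E15.10. After the correction 3 of the 95 segments were under 1/1.5 in E6.2 over E15.10, against 14.7% of all autosomal genes. They were Igkj2 at 0.357, Igkj4 at 0.356 and the V segment Igkv13-84 at 0.516. The uncorrected ratio of Igkv13-84 was 0.934 (0.841 to 1.04), and it is named for falling in this count, after its values were seen. In E15.10 over E6.43, 75 of the 95 were under 1/1.5 after the correction, against 22% of all autosomal genes. The depth of V segments in E15.10 is therefore given as a description only.

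A measure that needs no denominator outside the locus is the share of Igk counts that fell on the J and C segments. It was 0.426% in B cells (405 of 94994 counts, 95% Wilson interval 0.387% to 0.470%), 1.20% in the T cells of the same donor (729 of 60971, 1.11% to 1.29%) and 1.91% in E15.10 (362 of 18999, 1.72% to 2.11%). Set against E6.43, the share was 0.357 times as large in E6.2 and 1.59 times as large in E15.10. The share in E15.10 is set by its low V depth, since its J and C depth was itself below that of E6.43, so the comparison of E6.2 with E15.10 adds no separate evidence.

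Both alleles were low at the J and C segments in B cells against E6.43. The B6 counts over the 6 SNPs were 283 in E6.2 and 481 in E6.43, a ratio of 0.394 (0.339 to 0.458). The CAST counts were 122 and 248, a ratio of 0.330 (0.263 to 0.411). Against E15.10 the B6 ratio was 0.578 (0.488 to 0.685) and the CAST ratio 0.788 (0.594 to 1.05), the latter with an interval that includes 1. The allele ratios of single segments that follow are against E6.43. At Igkj2 the B6 ratio was 0.385 (0.318 to 0.466) and the CAST ratio 0.261 (0.192 to 0.351). At Igkj4 they were 0.390 (0.291 to 0.520) and 0.548 (0.343 to 0.872), so the allele with the lower ratio was not the same in both segments, and the intervals of the alleles overlap in each.

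Allelic imbalance (AI) is the B6 share of the counts, with the median autosomal gene near 0.538 in all 3 libraries. At Igkj2 it was 0.736, 0.654 and 0.743. At Igkj4 it was 0.684, 0.753 and 0.868, and at Igkc 0.558, 0.494 and 0.529. Between E6.2 and E6.43 none of these 3 segments differed by Fisher's exact test of the reads, with adjusted p of 0.126, 0.476 and 0.726 over all autosomal genes. Such a test compares these libraries, not the conditions. Between E6.2 and E15.10 the exact test called Igkj4 (adjusted p = 0.0106), and not Igkj2 (0.990) or Igkc (0.942). The SNPs of Igkj4 share reads, which makes its p too small. With the counts reduced for overdispersion, 0 light chain segments were called in this comparison.

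**Figure D2:**
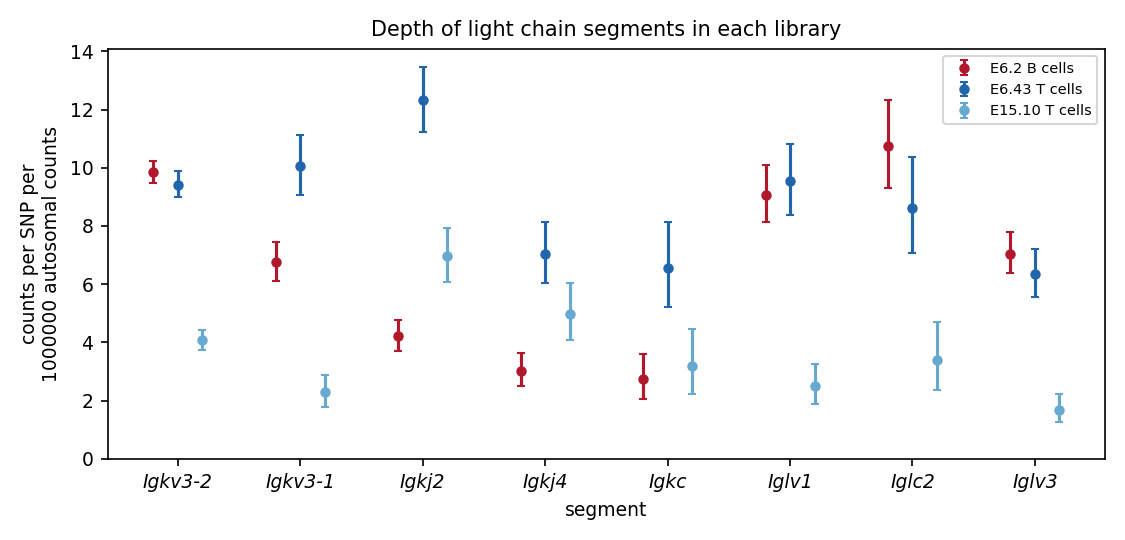
CPM per SNP in each library for the V segments nearest to the J segments, the J and C segments of Igk and the measured Igl segments, with 95% exact Poisson intervals. At Igkj2, Igkj4 and Igkc the B cell point is the lowest of the 3, while at Igkv3-2 and the Igl segments it lies with or above the T cell point of the same donor.

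The V array stood at the level of the T cell library of the same donor over its whole length. The 93 V segments and pseudogenes had 94316, 59999 and 18569 counts, or 4988, 4735 and 1748 CPM. The ratio of E6.2 to E6.43 was 1.05 (1.04 to 1.06). Over the 92 V segments with at least 30 counts the median ratio was 1.05, and 81 of them lay between 0.8 and 1.25. The central 90% of these V segments spanned 0.862 to 1.30, which is no wider than the 0.749 to 1.38 of all autosomal genes, whose median was 0.995.

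In steps of 0.5 Mb away from the J segments the summed V ratios were 1.09, 1.05, 1.06, 1.04, 1.07, 1.02 and 1.06. The nearest step, with 14 V segments, had an interval of 1.06 to 1.12, and the farthest, with 3, one of 1.01 to 1.11. V segments on the strand of the J segments had a ratio of 1.06 (1.04 to 1.08) and those on the opposite strand 1.05 (1.04 to 1.06), and the GC correction moved both to 1.03. Within single steps the strands were apart in 3 of 7, and not always in the same direction. In the step nearest to the J segments the ratio was 1.06 (1.03 to 1.10) on the strand of the J segments and 1.18 (1.12 to 1.25) on the opposite strand. From 2 to 2.5 Mb it was 1.10 against 0.961, again with intervals that do not overlap, and in the farthest step 1.04 (0.983 to 1.09) against 1.31 (1.10 to 1.56), the latter from 1 segment.

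The nearest V segments did not all behave alike. Igkv3-1, at 18.4 kb from the first J segment, had 383, 382 and 73 counts. Its ratio of E6.2 to E6.43 was 0.672 (0.582 to 0.776), the lowest of any V segment but Igkv14-100. Of its 3 SNPs, the ones at 70703980 and 70703992 had ratios of 0.579 (0.448 to 0.749) and 0.561 (0.433 to 0.726), and the one at 70703890 had 0.911 (0.711 to 1.17). The low value of Igkv3-1 thus rests on a pair of SNPs that lie close together. Igkv3-2, at 23.5 kb, had 2610, 1672 and 606 counts over 14 SNPs and a ratio of 1.05 (0.983 to 1.11). Igkv3-3 at 35.0 kb had 1.10 (0.981 to 1.23) and Igkv3-4 at 50.2 kb had 1.21 (1.06 to 1.38), so these neighbours were not low. Igkv14-100, with the lowest V ratio, lies far from the J segments, at 2203 kb.

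Igkv3-10, at 149 kb, had the highest ratio of the V segments. It had 2471, 1041 and 318 counts and a ratio of 1.59 (1.48 to 1.71). All 14 of its SNPs were above 1, from 1.24 to 2.24. Its neighbour Igkv3-9, at 134 kb, had 1363, 1062 and 156 counts and one of the lowest ratios, 0.860 (0.793 to 0.933). Within Igkv3-9 the SNP at 70588201 had a ratio of 1.42 and the other 9, which lie together near the end of the segment, had 0.738 to 0.827. V segments resemble each other, and 45.2% of the runs of 50 bases over the SNPs of Igkv3-10 occur a further time in the Igk locus, against 7.69% for Igkv3-9 and 0% for Igkv3-1. The part of shared sequence in these ratios was not tested. The 40 V segments with no such shared run had a median ratio of 1.05 and the 52 with some had 1.06.

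Other V segments at the ends of the range, among the 55 with at least 100 counts in each T cell library, were close to the rest. After Igkv6-17 at 0.839 (0.768 to 0.917) and Igkv3-9 the lowest were Igkv4-58 at 0.889 (0.780 to 1.01), Igkv8-30 at 0.894 (0.836 to 0.956) and Igkv5-37 at 0.908 (0.831 to 0.993). After Igkv3-10 the highest were Igkv5-48 at 1.30 (1.18 to 1.43), Igkv8-26 at 1.24 (1.11 to 1.39), Igkv6-14 at 1.24 (1.12 to 1.36) and Igkv1-99 at 1.23 (1.09 to 1.40). None of these 9 passed 1.5-fold in either direction. Outside the 55, some V segments lay further from 1 than these 9. Igkv4-90, with 442, 397 and 84 counts, was at 0.746 (0.650 to 0.857), and Igkv8-21, with 1 SNP, was at 1.48.

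The best covered V segments of the 0.5 Mb steps gave the firmest ratios. Igkv4-81, with the most counts (4174, 2566 and 723), was at 1.09 (1.04 to 1.15). Igkv12-41 was at 1.02 (0.960 to 1.09), Igkv4-63 at 1.13 (1.06 to 1.21), Igkv14-111 at 1.00 (0.923 to 1.09), Igkv1-132 at 1.04 (0.978 to 1.11) and Igkv1-135, near the far end, at 1.02 (0.961 to 1.08). Igkv2-137, the farthest V segment at 3166 kb from the first J segment, was at 1.16 (1.00 to 1.34) with 513, 296 and 151 counts.

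By V family, the ratios were even among the large families and wider among the small ones. The largest family, Igkv4 with 26 segments, was at 1.05 (1.03 to 1.07), Igkv1 with 10 at 1.04 (1.01 to 1.07), Igkv6 with 8 at 1.04 (1.00 to 1.08), Igkv3 with 7 at 1.10 (1.06 to 1.13), Igkv8 with 6 at 1.09 (1.05 to 1.13) and Igkv12 with 6 at 1.05 (1.01 to 1.09). Over all 18 families the ratios ran from 0.864 (0.682 to 1.10) for Igkv11, with 1 segment, to 1.21 (1.04 to 1.40) for Igkv17, with 2. By recombination signal the medians were close. V segments with an exact heptamer and nonamer, 27 in number, had a median ratio of 1.07, the 48 with the exact heptamer but another nonamer 1.05, and the 15 without the exact heptamer, 3 of them with the nonamer, 1.08.

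**Figure D3:**
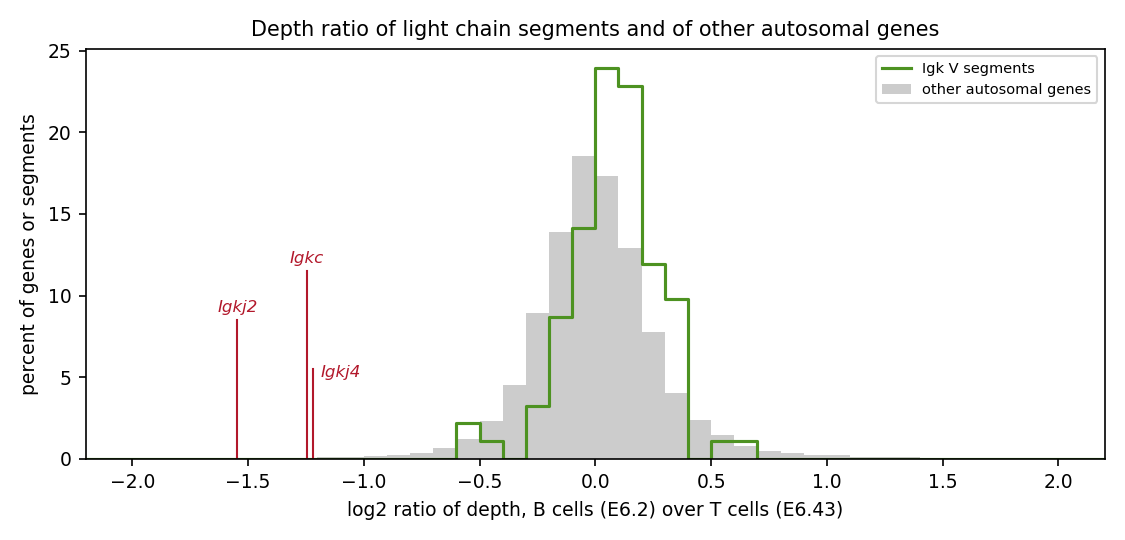
Distribution of the log2 ratio of depth, E6.2 over E6.43, as percent of the other autosomal genes (grey) and of the Igk V segments (green line). Red lines mark Igkj2, Igkc and Igkj4 and their height has no meaning. The V segments lie within the bulk of autosomal genes, and the J and C segments lie in its lower tail.

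Genes on both sides of the locus gave a base line for E6.2 over E6.43, while in E15.10 the sides differed. Genes within 5 Mb of Igk had 2277, 2253 and 1801 CPM and a ratio of E6.2 to E6.43 of 1.01 (0.996 to 1.03). On the side of the farthest V segments they had 941, 918 and 472 CPM, and on the side of the J and C segments 1337, 1335 and 1330 CPM. The ratio of E15.10 to E6.43 was 0.514 (0.497 to 0.531) on the former side and 0.996 (0.974 to 1.02) on the latter. The small RNA genes inside the V array had 273, 243 and 68 counts and a ratio of 0.753 (0.631 to 0.899), and 3 of the 6 passed the filter of 30 counts. Gm24096, with 131, 144 and 40 counts, carries the low sum with a ratio of 0.610 (0.477 to 0.778), under 1/1.5. Rprl1 was at 0.827 (0.553 to 1.24) and Gm23694 at 1.08 (0.757 to 1.56).

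The identity of the libraries was checked with segments that other rearrangements remove. The Ighd segments, which are lost when the heavy chain locus is joined, had 61 counts in E6.2 against 218 in E6.43 and 125 in E15.10, a ratio of E6.2 to E6.43 of 0.188 (0.139 to 0.250). The V and D segments of Trd, the delta chain locus that joining of the alpha chain locus deletes in T cells, had 2430 counts against 574 and 450, a ratio of 2.84 (2.59 to 3.11). Both differences go in the direction of the labels. Genes of B cells and of the joining machinery that do not rearrange stood near 1 in E6.2 over E6.43. The 16 of them on a list, among them Rag1 and Rag2 (the recombinase), Dntt (which adds bases at joins), Cd79a and Cd79b (partners of the B cell receptor) and Lig4 and Xrcc4 (which seal the ends), had ratios of 0.849 to 1.16 with a median of 1.01. In E6.2 over E15.10 the same genes ran from 0.541 for Vpreb3 to 5.12 for Xrcc4, with a median of 1.06.

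The lambda locus was not lower in B cells than in the T cells of the same donor. Its 6 SNPs had 946, 592 and 143 counts, or 50.0, 46.7 and 13.5 CPM. The ratio of E6.2 to E6.43 was 1.07 (0.965 to 1.19), an interval that includes 1. Iglv1 had 343, 242 and 53 counts and a ratio of 0.950 (0.803 to 1.12). Iglv3 had 400, 241 and 54 counts and a ratio of 1.11 (0.946 to 1.31). Iglc2, the constant exon, had 203, 109 and 36 counts and a ratio of 1.25 (0.984 to 1.59). The interval of Iglc2 does not overlap that of Igkc. No lambda J segment was measured, so the place that corresponds to Igkj2 and Igkj4 was not seen.

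Genes within 5 Mb of Igl stood at 7600, 7652 and 7496 CPM. Of the 3 lambda segments, 0 were under 1/1.5 of E6.43, against 2.10% of all autosomal genes. In E15.10 over E6.43 all 3 were, against 31.4%, and the shift of E15.10 in base composition stands beside that count. The summed lambda ratio of E15.10 to E6.43 was 0.288 (0.238 to 0.346), and 0.427 after the GC correction within 150 bp. For the genes within 5 Mb of Igl the uncorrected ratio was 0.980 (0.970 to 0.989). The cause of the low lambda depth in E15.10 was not tested. The AI of Iglc2 was on the CAST side in all 3 libraries, at 0.246, 0.303 and 0.194, that of Iglv3 was near even at 0.498, 0.523 and 0.519, and that of Iglv1 was 0.673, 0.649 and 0.453. Fisher's exact test called Iglv1 between E6.2 and E15.10 (adjusted p = 0.0213) and no lambda segment between E6.2 and E6.43, where the smallest adjusted p was 0.544. With the counts reduced for overdispersion, Iglv1 was not called.

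The B6 share of the kappa V segments was spread widely, and in much the same way in all 3 libraries. Over all V SNPs it was 0.631, 0.632 and 0.623. Over the 90 V segments with at least 10 counts in each library the median AI was 0.574, 0.580 and 0.589, and the interquartile range was 0.524 to 0.731 for the B cells, 0.518 to 0.723 for E6.43 and 0.458 to 0.764 for E15.10. The AI of a segment in E6.2 and in E6.43 correlated with Pearson's r = 0.938 and Spearman's rho = 0.842 across the 90 segments, and the 2 libraries differed by a median of 0.0309. With E15.10 the r was 0.820 for E6.2 and 0.821 for E6.43. The segments share SNPs, alignment and strains between the libraries and are not replicates.

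**Figure D4:**
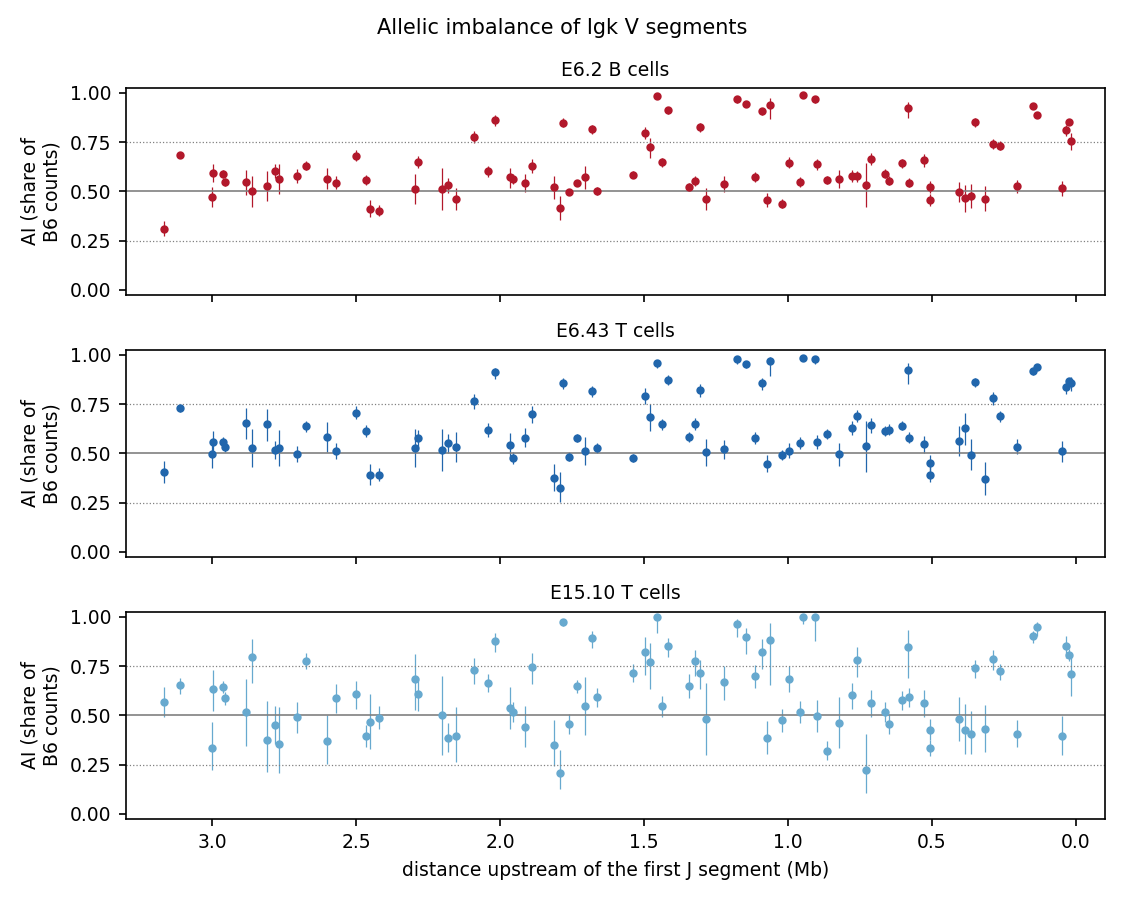
AI (B6 share of counts, from 0 to 1) of each Igk V segment with at least 10 counts in every library against its distance upstream of the first J segment in Mb, with 1 library per plot, with 95% Wilson intervals. Dotted lines mark 0.25 and 0.75. Of the segments drawn, 17 stand above 0.75 in all 3 libraries.

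An AI over 0.75 in all 3 libraries was found in 17 of the 93 Igk segments with at least 10 counts in each library, against 1.57% of all autosomal genes. An AI under 0.25 in all 3 was found in 0 of the 93, against 0.624%. The CAST-poor segments included 7 of the 26 of family Igkv4 and 4 of the 7 of family Igkv3. Igkv5-45 had 11 CAST counts beside 835 B6 counts in B cells, 9 beside 573 and 0 beside 103 in the T cell libraries. Igkv4-70 had 10 beside 552, 16 beside 378 and 0 beside 43, and Igkv12-44 had 13 beside 410, 4 beside 212 and 0 beside 28. A count of 0 CAST reads in 103 allows a share of up to 2.91%. The B cell library did not stand apart in them.

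Some SNPs lacked one allele altogether. Of 526 Igk SNPs with at least 30 counts, 11 had 0 CAST counts in all 3 libraries, against 0.429% of all autosomal SNPs of that depth, and 0 had no B6 counts, against 0.0757%. The 11 SNPs lie in Igkv3-9, Igkv4-61 and Igkv5-45. In Igkv3-9 the SNPs from 70588638 to 70588681 had at most 3 CAST counts, while the SNP at 70588201 had 148 B6 and 149 CAST counts in B cells and 75 and 65, then 25 and 8, in the T cell libraries. A further 8 listed SNPs, in Gm25436, Gm25833, Igkv2-95-2 and Rn7s6, had no counts at all.

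The AI also varied between the SNPs of 1 segment, by ranges that include the counting error of single SNPs. Over the V segments with at least 3 SNPs of 30 counts or more, the AI of single SNPs spanned a median range of 0.147 (62 segments), 0.170 (62) and 0.171 (39). The widest range in E6.2 was 0.502, in Igkv3-9. Igkv6-25 is a case in point. Its summed AI was 0.456, 0.452 and 0.428, but the SNPs at 70215452 and 70215453 were on the B6 side (64 B6 and 24 CAST counts in E6.2 at the first), while those at 70215882 and 70215883 were on the CAST side (110 and 212 at the first). Of the runs of 50 bases over its SNPs, 32.9% occur elsewhere in the locus. Igkv6-25 was not low in B cells, with a ratio of 1.05 (0.950 to 1.17), and Igkv4-91 was at 1.04 (0.959 to 1.12).

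Differences in AI between libraries were counted for all light chain segments with Fisher's exact test, two-sided, adjusted over all autosomal genes. Between E6.2 and E6.43, 21 of 98 segments were called, against 13.8% of all autosomal genes. Between E6.2 and E15.10 it was 32 of 96, against 18.8%, and between the T cell libraries 27 of 96, against 18.7%. The B6 share was the higher one in E6.2 for 11 of the 21 and for 18 of the 32. With the counts reduced for overdispersion between SNPs that share reads, 0 segments were called in each of the 3 comparisons, against 0.018%, 1.03% and 1.06% of all autosomal genes. At an unadjusted p under 0.05 by the same exact test these numbers were 0 of 98, 8 of 96 and 7 of 96, against 1.76%, 3.88% and 4.11%. With only SNPs at least 300 bp apart, 0 of 97, 5 of 95 and 2 of 95 segments were called, against 0.661%, 4.76% and 4.78%. At an unadjusted p under 0.05 by the exact test on such SNPs, 14 of 97 segments passed between E6.2 and E6.43, against 2855 of 21938 autosomal genes. The adjusted calls between E6.2 and E6.43 were thus seen only where all reads of 1 segment were counted as independent. Both stricter counts leave fewer reads and called few genes anywhere, so they cannot show whether the calls depend on that.

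Among the 55 V segments with at least 100 counts in each T cell library, the 5 largest differences in AI between E6.2 and the mean of both T cell libraries went in both directions. Igkv2-137 had AI values of 0.310, 0.405 and 0.570. Igkv4-62 had 0.552, 0.649 and 0.775, and Igkv5-37 had 0.576, 0.689 and 0.781. In the other direction Igkv8-24 had 0.523, 0.393 and 0.333 and Igkv5-43 had 0.637, 0.558 and 0.497. Of the 35 V segments with fewer counts, 6 differed by more than Igkv5-43, the most by Igkv17-127, whose difference was -0.163 (E6.2 minus the mean) at 150, 100 and 49 counts. In each of the first 5 the value of E6.43 lay between those of E6.2 and E15.10. Their depth ratios of E6.2 to E6.43 were 0.908 to 1.16, so the shifts in AI did not come with a loss of depth past 1.5-fold.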

How the data were processed

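Genomic DNA of 3 sorted cell samples, 1 per recipient animal, was captured with the Agilent SureSelect mouse all-exon kit and sequenced by the authors. Per the labels, the submitters' processing notes name cutadapt 1.14, Trim Galore, STAR 2.5.4a, SAMtools and GATK with GRCm38 (mm10). By the study's methods, exome reads went through the ASEReadCounter* pipeline, described there for RNA reads as STAR alignment to the B6 and an imputed CAST genome, with default filters and unique alignments only. How duplicates were handled is not given in the sources used here. For each library the authors deposited counts of B6 and CAST reads per gene, with the position and counts of each SNP. A table of the whole series, deposited for genes with at least 90 counts, repeats these counts and adds the fraction AI, its interval, a p-value and a call (other values, true or false). Its counts were used as an alternative and were checked to equal those of the library files; the authors' deposited p-value and calls were not used, and the deposited fraction AI was recomputed from counts. Alignment that favours the reference raises AI, and reads shared by similar V segments may be lost or misplaced.

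Depth was expressed as counts per 1000000 autosomal counts (CPM), of which the libraries had 18906729 (E6.2), 12671054 (E6.43) and 10624832 (E15.10). Positions listed more than once numbered 0. Ratios carry exact conditional (Clopper-Pearson) intervals and shares Wilson intervals, at 95% and for counting error only. Gene calls used log2 of counts plus 0.5, genes with at least 30 counts over the libraries, and a limit of 1.5-fold, since 1 library per group allows no test. AI calls used Fisher's exact test, two-sided, for genes with at least 10 counts in both libraries, with Benjamini-Hochberg adjustment at 0.05. Reads pooled from 1 animal are no replicates, and the p-values measure read sampling only. Names came from GENCODE M21 (29309 of 30212 genes found), and Igkv2-109 and Igkv2-116, absent there, from the position of RefSeq genes of GRCm38. Named V segments were the J, C and lambda segments, Igkv6-25, Igkv4-91, the 5 lowest and 5 highest ratios, the nearest, the farthest, the best covered of each 0.5 Mb step, the 5 largest differences in AI and segments lacking an allele. Members, lists and rules were chosen with earlier results of these data known. Python 3.11.15, numpy 2.4.6, pandas 2.3.3 and scipy 1.17.1 were used, and the tests were tried on simulated data.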

Additional observations from a re-analysis of the deposited data

How the results depend on the processing

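No paired analysis was possible because each group has 1 library, and no library could be left out for the same reason. The summed Igk ratio of E6.2 to E6.43, 1.04, became 1.03 with genes within 5 Mb as the denominator, 1.06 with SNPs at least 300 bp apart, 1.02 with a GC correction within 150 bp and 0.992, on the other side of 1, with one within 500 bp. Against E15.10 it was 2.81, that of the J and C segments was 0.629 and that of Igl was 3.72. The ratio of the J and C segments, 0.372, stayed between 0.330 and 0.397 under the other settings except as the median over segments, at 0.421. The number of Igk segments under 1/1.5 was 2 against E15.10 in place of 4, and 3 to 5 under the other settings. The number of segments with a called AI difference fell from 21, 32 and 27 (E6.2 against E6.43, E6.2 against E15.10, E15.10 against E6.43) to 0, 5 and 2 with SNPs at least 300 bp apart (against 0.661%, 4.76% and 4.78% of all autosomal genes) and to 0, 0 and 0 with overdispersion, which leave fewer counts. The cause of the other changes was not tested. The 6 SNPs of the J and C segments carry that result and 1 of them carries Igkc. The ratio of Igkc was 0.420 (0.291 to 0.601) against E6.43 and 0.859 (0.547 to 1.37) against E15.10. These intervals overlap, and only that against E15.10 includes 1. Both ratios use the same counts of E6.2, so their overlap does not compare the T cell libraries. In E15.10 over E6.43 Igkc was at 0.489 (0.318 to 0.736).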
